A study of Rattus norvegicus with 4 samples.

Results

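Phagocyte NADPH oxidase genes, Rac2 and related genes were followed in sorted olfactory ensheathing cell cultures. The 8 listed genes were Cybb, Cyba, Ncf1, Ncf4, Rac1, Rac2, Vav1 and Coro1a. Members were all gene probes whose name in the scanner files was one of these symbols, after removal of the endings used for predicted or mapped genes. That rule found 8 probes of 7 genes among the 41012 gene probes of the array. The remaining gene, Ncf4, carried a provisional locus name in the files and was matched through its gene ID to 1 probe, so 9 probes on 18 spots per array are described. All 9 were among the 24941 probes kept for testing, a filter that asked for 1 channel to be well above background on 3 or more of the 4 arrays.

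Olfactory ensheathing cells are the glia of the olfactory nerve. Cultures from male Fischer rats were sorted by flow cytometry on p75, the low-affinity neurotrophin receptor encoded by Ngfr, into p75High and p75Low cells, with a purity of 98% per the labels. There were 4 biological replicates, and each gave 1 array, on which the p75High sample carried Cy5 and the p75Low sample Cy3, with no array of exchanged dyes. No treatment separated the groups, and the labels give no age and do not say whether the replicates were separate animals, so the p-values describe the spread among these samples only, and some of it may be technical. The cDNA was amplified by a global PCR before labelling, which with the fixed dye order can act on every ratio. The scanner software marked 22464 to 28062 probes in p75High and 23044 to 26174 in p75Low as well above background, and the number of arrays limits the precision. Over the kept probes, log2 ratios of different arrays correlated at 0.17 to 0.25, and the median SD over the arrays was 1.18. Wide spread between arrays was thus general. Ngfr, the sorted marker, read 6.07, 6.17, 5.02 and 5.96 as log2 ratios of p75High over p75Low in replicates 1 to 4, so the sort was seen on each array.

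The phagocyte NADPH oxidase makes superoxide by passing electrons from NADPH across the membrane to oxygen. Its membrane core is a heterodimer of Cybb (gp91phox, also called Nox2) and Cyba (p22phox), and it becomes active when cytosolic subunits, among them Ncf1 (p47phox) and Ncf4 (p40phox), and a GTP-bound Rac join it. Rac2 is the Rac of blood cells, whereas Rac1 is widely expressed. Vav1 is an exchange factor that loads Rac with GTP in blood cells, and Coro1a is an actin-binding coronin of leukocytes that binds the oxidase component p40phox. In nervous tissue this oxidase is known mainly from microglia and macrophages.

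The probes that carry the findings were 60-base oligonucleotides, shown 5′ to 3′ as the array file gives them, in lower case throughout, because the ratios below rest on hybridisation to these letters alone.
Ncf1: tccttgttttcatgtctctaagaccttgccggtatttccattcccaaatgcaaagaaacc
Vav1: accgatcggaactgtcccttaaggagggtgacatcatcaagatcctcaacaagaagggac
Cybb: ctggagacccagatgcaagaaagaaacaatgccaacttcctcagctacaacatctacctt
Rac2: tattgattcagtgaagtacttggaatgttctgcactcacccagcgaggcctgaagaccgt
Rac1 repeated probe: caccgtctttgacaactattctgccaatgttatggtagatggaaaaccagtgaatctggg
Rac1 EST probe: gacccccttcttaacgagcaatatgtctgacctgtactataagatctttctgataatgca
Positions are those of the array file in the rn4 build. The Ncf1 probe lay at chr12:23586665-23586724 on the plus strand, the Cybb probe at chrX:25518505-25518564 on the minus strand, and the Vav1 probe on unplaced sequence. The Rac2 probe was placed at chr7:116521184-116524827 on the minus strand and the repeated Rac1 probe at chr12:11390067-11391924 on the plus strand. These intervals span 3644 and 1858 bases for 60-base probes. The second Rac1 probe was designed on an expressed sequence tag (EST), a single-pass cDNA read, at chr12:11401260-11401319. The Cyba probe lay at chr19:52721431-52721490, the Ncf4 probe at chr7:116190216-116190275 and the Coro1a probe at chr1:185852895-185852954. Exon, coding or untranslated position was not analysed here. Rac2 and the repeated Rac1 probe shared at most 7 consecutive bases. The array also held a predicted Rac1-like locus, LOC687259, whose probe shared at most 6 with the repeated Rac1 probe. These values compare probe with probe only. Whether a probe also matches the transcript of the other gene was not analysed, so they do not show that the probes are specific.

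The comparison asked how transcripts of the oxidase and its Rac partners differed between ensheathing cell cultures with high and low p75. All 9 probes had a mean log2 ratio below 0, that is, more signal in p75Low than in p75High, from -4.45 for Ncf1 to -1.01 for Cyba, with a median of -2.21. The median over the 24872 tested probes was -0.03, and 51.4% of them had a mean below 0. Normalization centres the ratios of each array near 0, so both of these values were largely set by it. In the limma fit over all tested probes, 0 of the 9 passed an adjusted p of 0.05 (Benjamini-Hochberg), where 0.394% of all tested probes were called lower and 0.261% higher. At an unadjusted p under 0.05, 7 of the 9 were lower and 0 higher, against 6.78% lower and 5.75% higher among all tested probes. Vav1, which is among these 7, and Cyba were well above background on 2 arrays in p75High, so they met the filter through p75Low alone, the channel in which they were brighter on average, and the counts of 7 and 9 are not independent of the filter for them. Ratios were negative on all 4 arrays for Ncf1, Vav1, Coro1a and Rac2, 4 of 9 probes, against 13.0% of the kept probes with a reading on every array. This count holds Vav1 too, so it is not independent of the filter either. With any 1 of the 4 arrays left out, 0 probes of the whole array passed in limma (2081 to 2652 at an unadjusted p under 0.05), so each call given below rests on all 4. The cells were measured in bulk, so fewer cells of a type and less RNA per cell cannot be told apart.

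**Figure D1:**
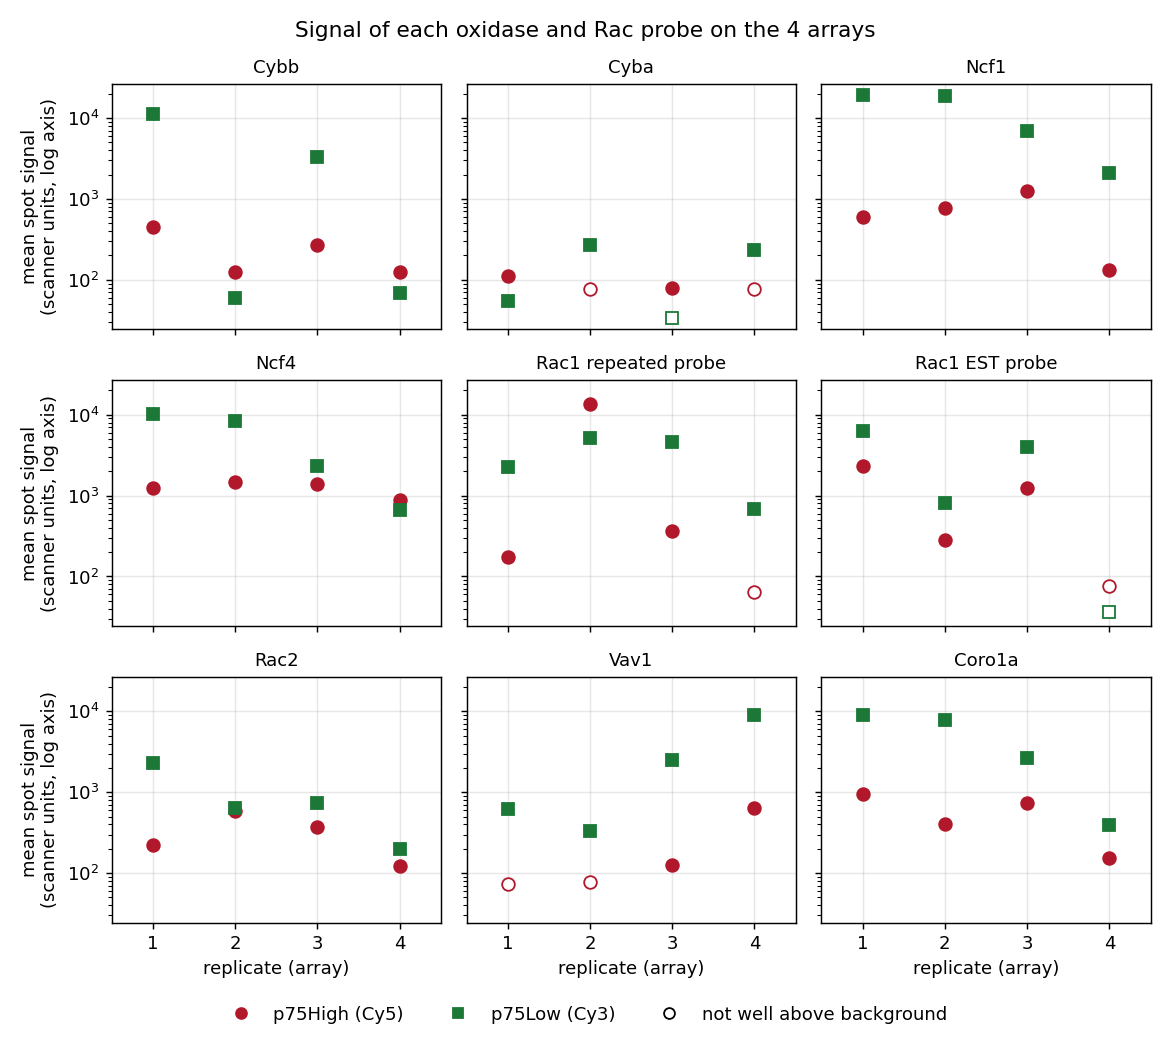
Mean spot signal (scanner units, log axis) of the 9 probes on the 4 arrays, with p75High in Cy5 as circles, p75Low in Cy3 as squares and open symbols for readings not well above background. Ncf1 and Coro1a have p75Low above p75High on each array, whereas Cybb is bright in p75Low on replicates 1 and 3 alone.

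The signals below are the spots' mean brightness before background correction and normalization. The ratios, not the raw signals, compare the channels. They come after normexp background correction with an offset of 50 and loess normalization, and the offset draws dim spots towards a ratio of 0.

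Ncf1, the organizer subunit that brings the cytosolic complex to the membrane, had the most negative ratio of the set. Its p75Low signal was 19385, 18641, 6951 and 2090 in replicates 1 to 4, and its p75High signal was 591, 767, 1242 and 134. The lowest p75Low reading exceeded the highest p75High reading, and both channels were well above background on every array. The log2 ratios were -4.99, -5.52, -3.20 and -4.08, with a mean of -4.45 ± 1.02 (SD, n = 4), a 21.9-fold ratio in favour of p75Low (95% interval of the log2 ratio -5.73 to -3.17). The adjusted p was 0.0525, just short of the threshold. Ncf1 passed with the filter on dim probes made stricter (adjusted p = 0.0285), with outlier spots kept (adjusted p = 0.0490), with the scanner's own ratios (adjusted p = 0.0483) and with the pairing ignored (adjusted p = 0.0238). Over all other settings tried with 4 arrays, its adjusted p ran from 0.0238 to 0.106, and from 0.131 to 0.221 with 1 array left out.

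Ncf4, the p40phox subunit that binds phosphoinositides on the phagosome, was bright in both populations. Its p75Low signal was 10142, 8251, 2320 and 657, and its p75High signal was 1257, 1465, 1374 and 888. The p75High readings stayed within a narrow band while the p75Low readings ranged widely, and on replicate 4 the populations came together. For Ncf4 the log2 ratios were -2.99, -3.42, -1.47 and 0.25 (mean -1.91 ± 1.66, adjusted p = 0.396). The mean was -2.63 without replicate 4, with an adjusted p of 0.275.

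Cybb, the catalytic core, divided the arrays. Its p75Low signal was 11231, 58.8, 3329 and 67.9 in replicates 1 to 4, and its p75High signal was 453, 124, 271 and 125. On replicates 1 and 3 the p75Low spots were bright, whereas on replicates 2 and 4 both channels lay close to the dim end, although the scanner software still marked them as well above background. The log2 ratios were -4.62, -0.07, -4.27 and 0.13 (mean -2.21 ± 2.59, adjusted p = 0.474). The mean was -1.40 without replicate 1 and ran from -2.99 to -1.40 with 1 array left out. After normalization, the p75Low level of Cybb spanned 6.26 log2 units over the arrays. The median span of kept probes in p75Low was 1.62, and 4.43% of them spanned as much as Cybb or more.

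Cyba, the stabilising partner of Cybb, was the dimmest member. Its p75Low signal was 55.3, 267, 33.6 and 235, and its p75High signal was 113, 77.3, 79.2 and 76.8. It was well above background in p75Low on 3 arrays and in p75High on 2. For Cyba the log2 ratios were 0.16, -2.38, 0.16 and -1.98 (mean -1.01 ± 1.36, adjusted p = 0.536). The mean was -2.17 with the scanner's own ratios and -0.55 without replicate 2. Cyba was therefore dim on the arrays on which Cybb was bright, and its p75Low excess appeared on replicates 2 and 4, where Cybb had none.

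**Figure D2:**
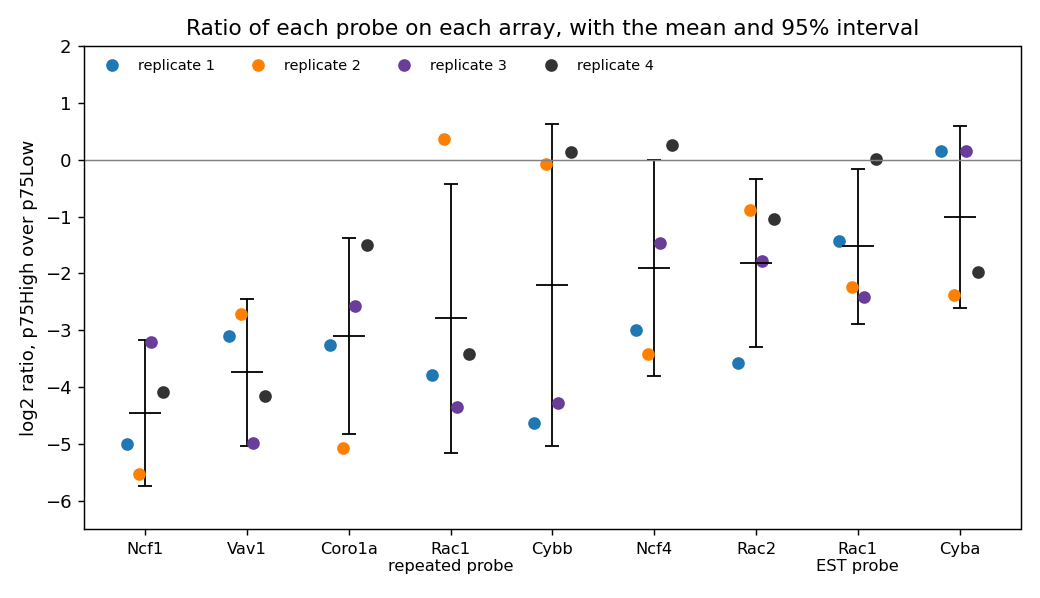
Log2 ratio of p75High over p75Low for each probe on each array (coloured points), with the mean (horizontal mark) and its 95% interval from the limma fit (bars), ordered by mean. All 9 means lie below 0, and the arrays of Cybb fall into a pair at -4.62 and -4.27 and a pair at -0.07 and 0.13.

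Rac2, the blood cell GTPase of the complex, had a smaller ratio with the same sign on each array. Its p75Low signal was 2316, 643, 745 and 196, and its p75High signal was 221, 587, 372 and 122. Replicate 1 had the widest gap, and on replicate 2 the raw signals nearly met. For Rac2 the log2 ratios were -3.57, -0.89, -1.78 and -1.04 (mean -1.82 ± 1.23, a 3.53-fold ratio in favour of p75Low, adjusted p = 0.336). Without replicate 1 the mean was -1.24.

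Rac1, the widely expressed Rac, was read by a probe repeated on 10 spots and by the EST probe. The repeated probe gave p75Low signals of 2231, 5176, 4580 and 680 and p75High signals of 175, 13561, 364 and 64.1, where 3 of the 10 spots of replicate 4 were left out as outliers and the p75High reading there was not well above background. Replicate 2 stood opposite to the others, with the brightest p75High reading of any member. The log2 ratios were -3.78, 0.37, -4.34 and -3.42 (mean -2.79 ± 2.14, adjusted p = 0.351), and the mean was -3.85 without replicate 2. The spots of 1 array agreed far better than the arrays did. By the scanner's ratios, the SD over repeat spots was 0.03 to 0.32 within an array, and the SD over the 4 arrays was 3.32.

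The EST probe of Rac1 gave p75Low signals of 6282, 820, 3987 and 36.5 and p75High signals of 2322, 286, 1229 and 75.8. Neither channel was well above background on replicate 4. Its log2 ratios were -1.43, -2.24, -2.41 and 0.01 (mean -1.52 ± 1.11, adjusted p = 0.366). The probes of Rac1 thus differed in sign on replicate 2, at 0.37 and -2.24, and cannot be compared on replicate 4, where the EST probe gave no reading above background. The Rac1-like locus LOC687259 read -1.93, 2.01, -2.17 and -0.15.

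The ratio of Rac2 was set against that of Rac1, the mean of its 2 probes, within each array. The difference was -0.97, 0.05, 1.59 and 0.67 on the log2 scale, with a mean of 0.34 ± 1.08 (SD, n = 4). An exact sign-flip permutation test, two-sided, gave p = 0.625, where 0.125 is the smallest value that 4 arrays allow. Against the repeated probe alone the mean difference was 0.97 and against the EST probe alone -0.30. Without replicate 3 the difference changed sign, to -0.08. On replicate 4 the Rac1 mean includes the EST probe, which was well above background in neither channel. The p75High reading of the repeated probe there was not well above background either. A p of 0.05 was out of reach with 4 arrays, so the test could not decide whether the ratios of Rac2 and Rac1 differed.

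Vav1, the Rac exchange factor of blood cells, was the second most negative member. Its p75Low signal was 622, 332, 2508 and 8963, and its p75High signal was 72.9, 76.7, 126 and 641. Each p75Low reading was well above background, but the p75High readings of replicates 1 and 2 were not, so the ratio on those arrays depends on how background is treated. The log2 ratios were -3.10, -2.71, -4.98 and -4.16, with a mean of -3.74 ± 1.03 (SD, n = 4), a 13.3-fold ratio in favour of p75Low (95% interval -5.03 to -2.45, adjusted p = 0.0768). The scanner's own ratios gave a mean of -5.42 and passed (adjusted p = 0.0375).

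Coro1a, the leukocyte coronin, gave p75Low signals of 8986, 7709, 2687 and 389 and p75High signals of 948, 400, 740 and 154. In each pair the p75Low channel was the brighter, with the narrowest gap on replicate 4. For Coro1a the log2 ratios were -3.26, -5.07, -2.58 and -1.50 (mean -3.10 ± 1.50, an 8.59-fold ratio in favour of p75Low, adjusted p = 0.216). The ratio of Coro1a was thus least negative on the array on which Vav1 was brightest.

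Ordered by mean ratio, the set ran Ncf1, Vav1, Coro1a, the repeated Rac1 probe, Cybb, Ncf4, Rac2, the Rac1 EST probe and Cyba. Each of the 8 neighbouring pairs in that order differed by 0.09 to 0.71 on the log2 scale, less than the SD of that difference over the arrays, which was 1.59 to 3.48. By array, 8, 8, 8 and 6 of the 9 probes were negative in replicates 1 to 4, and the median of the set was -3.26, -2.38, -2.58 and -1.50. The median of all kept probes, which the normalization sets near 0, was between -0.02 and 0.01 on each array. Replicate 4 also had the fewest members well above background in p75High, 6 of 9, against 8, 7 and 9 in replicates 1 to 3, and the part of this in the smaller median was not tested.

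**Figure D3:**
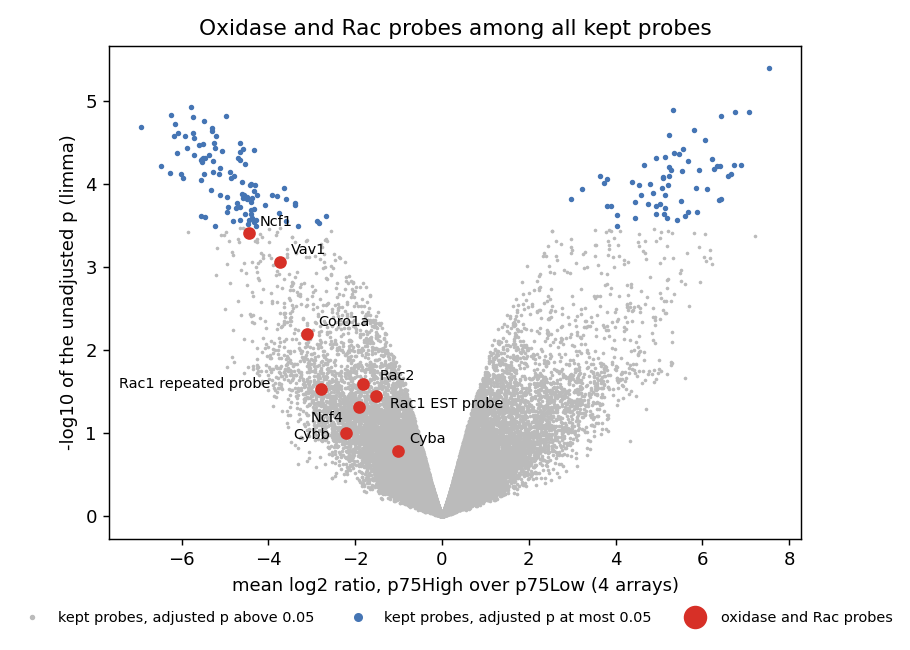
Mean log2 ratio of p75High over p75Low (horizontal axis) against -log10 of the unadjusted p from limma (vertical axis) for all tested probes, with those past an adjusted p of 0.05 in blue and the 9 oxidase and Rac probes in red. All members lie on the side of p75Low, and Ncf1 lies just under the called probes.

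The promoter windows of the members, 250 bases before the start site from RefSeq (GRCr8), were present for 5 of the 8 genes, Cybb, Cyba, Ncf1, Vav1 and Coro1a. They were searched on both strands for GAGGAA, the core bound by the myeloid factor PU.1, and for GGAA followed after 2 bases by GAAA, a joint element of PU.1 and interferon regulatory factors. Of 33469 promoters in the table, 23.3% held the first and 2.48% the second. Cybb held both, overlapping each other on the strand opposite to the gene, at 14 and 20 bases before the start site. Vav1 held the core on its own strand, 52 bases before the start site. The windows of Cyba, Ncf1 and Coro1a held neither string. The windows of Cybb (chrX:16065066-16065315, minus strand), Vav1 (chr9:2248705-2248954, plus strand) and, for contrast, Ncf1 (chr12:28121635-28121884, plus strand) are shown 5′ to 3′ with matches in capitals.
Cybb: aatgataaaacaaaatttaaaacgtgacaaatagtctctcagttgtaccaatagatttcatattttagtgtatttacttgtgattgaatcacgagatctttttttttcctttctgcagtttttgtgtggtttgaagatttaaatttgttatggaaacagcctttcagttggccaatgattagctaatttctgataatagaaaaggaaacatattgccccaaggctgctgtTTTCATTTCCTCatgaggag
Vav1: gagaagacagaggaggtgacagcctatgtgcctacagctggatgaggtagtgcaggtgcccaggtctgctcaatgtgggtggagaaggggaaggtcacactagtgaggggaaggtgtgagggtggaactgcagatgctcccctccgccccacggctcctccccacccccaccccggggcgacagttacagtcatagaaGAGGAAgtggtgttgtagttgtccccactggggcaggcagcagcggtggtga
Ncf1: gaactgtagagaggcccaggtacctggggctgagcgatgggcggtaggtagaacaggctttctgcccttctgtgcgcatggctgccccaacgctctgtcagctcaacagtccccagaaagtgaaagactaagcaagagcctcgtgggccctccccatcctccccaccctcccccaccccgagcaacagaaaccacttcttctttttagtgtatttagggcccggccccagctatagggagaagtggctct
A match is a description of the letters. Mean ratios were -3.74 and -2.21 for Vav1 and Cybb, which held the core, and -4.45, -3.10 and -1.01 for Ncf1, Coro1a and Cyba, which did not.

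Further genes of the oxidase family were taken from a list of 13 genes, of which 8 were tested, each by its brightest kept probe. The list median was -0.53. Nox1, Noxa1, Noxo1, Duox1 and Duoxa1, genes of oxidases outside phagocytes, had mean ratios of -0.63 to 0.31. Nox1, the colon oxidase, read 0.31 ± 1.06, and Duox1, a dual oxidase of thyroid and airway, -0.06 ± 1.12. Noxo1, the organizer for Nox1, read -0.44 ± 0.28 (adjusted p = 0.557). Nox1 was well above background on 3 arrays in p75High and 2 in p75Low, so it met the filter through p75High alone. Cybc1, a chaperone of the Cybb and Cyba heterodimer, read -0.77 ± 1.46.

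Regulators and effectors of Rac gave 1 lower, 0 higher and 19 not passing among 20 tested of 26 listed, with a median of -1.49. The gene past the threshold was Nckap1l (Hem1), the blood cell subunit of the WAVE complex through which Rac drives actin branching. It read -4.95, -5.00, -5.47 and -5.75, with a mean of -5.29 ± 0.39 (SD, n = 4), a 39.2-fold ratio in favour of p75Low (adjusted p = 0.0262, and 0.100 to 0.144 with 1 array left out). Its widely expressed paralog Nckap1 read 3.04, -0.24, 3.13 and 5.38 (mean 2.83 ± 2.31, adjusted p = 0.366) and was not well above background in p75Low on any array. Nckap1 thus met the filter through p75High alone, the channel in which it was brighter on average, so its sign is not independent of the filter. Dock2 and Dock8, exchange factors of the blood lineage, read -0.55 ± 0.74 and -3.08 ± 1.59, and the other probes of Dock2 read -2.93 and -4.01. Arhgdib, the leukocyte inhibitor that holds Rac in the cytosol, read -2.19 ± 2.27. It was well above background on 2 arrays in p75High and 3 in p75Low. Nckap1, Dock2, Dock8, Arhgdib, Nox1, Noxa1, Duox1, Duoxa1 and Cybc1, and below Col1a2, Col3a1, Thy1 and Fn1, were not named by the rule and were picked with their values in view.

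Kinases and adaptors upstream of the oxidase gave 0 of 11 tested past the threshold in limma (4 lower and 0 higher at an unadjusted p under 0.05), with a median of -2.73. Lyn, a Src-family kinase of Fc and integrin signalling, read -3.03, -4.67, -4.13 and -2.30 (mean -3.53 ± 1.07, adjusted p = 0.0945). Lcp2, the SLP-76 adaptor that binds Vav1, read -3.71, -3.59, -1.59 and -5.63 (mean -3.63 ± 1.65, adjusted p = 0.190). With the scanner's own ratios Lyn passed, at -5.42 (adjusted p = 0.0430). Other coronins and actin regulators gave 0 of 12 (2 lower and 0 higher unadjusted), with a median of -1.40. Coro1b, the broadly expressed paralog of Coro1a, read -1.39, -5.35, -3.18 and -6.27 (mean -4.05 ± 2.20, adjusted p = 0.248), and Arpc2, a subunit of the Arp2/3 complex, -3.56 ± 2.32 (adjusted p = 0.312).

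Enzymes that remove superoxide and peroxide gave 0 of 17 tested past the threshold in limma (2 lower and 1 higher unadjusted), with a median of -0.71 and list medians of -0.94, -0.46, 0.32 and 0.09 in replicates 1 to 4. The members with the smallest p had opposite signs. Sod3, the secreted superoxide dismutase, read 1.85, 2.51, 2.73 and 0.60 (mean 1.92 ± 0.96, adjusted p = 0.270). Sod2, the mitochondrial form, read -4.26, -5.25, -2.82 and -0.04 (mean -3.10 ± 2.27, adjusted p = 0.336). Sod2 was well above background on 2 arrays in p75High and 3 in p75Low, so it met the filter through p75Low alone. Beside these, catalase (Cat), also picked with its values in view, read 7.46, 1.77, 0.48 and -4.82.

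**Figure D4:**
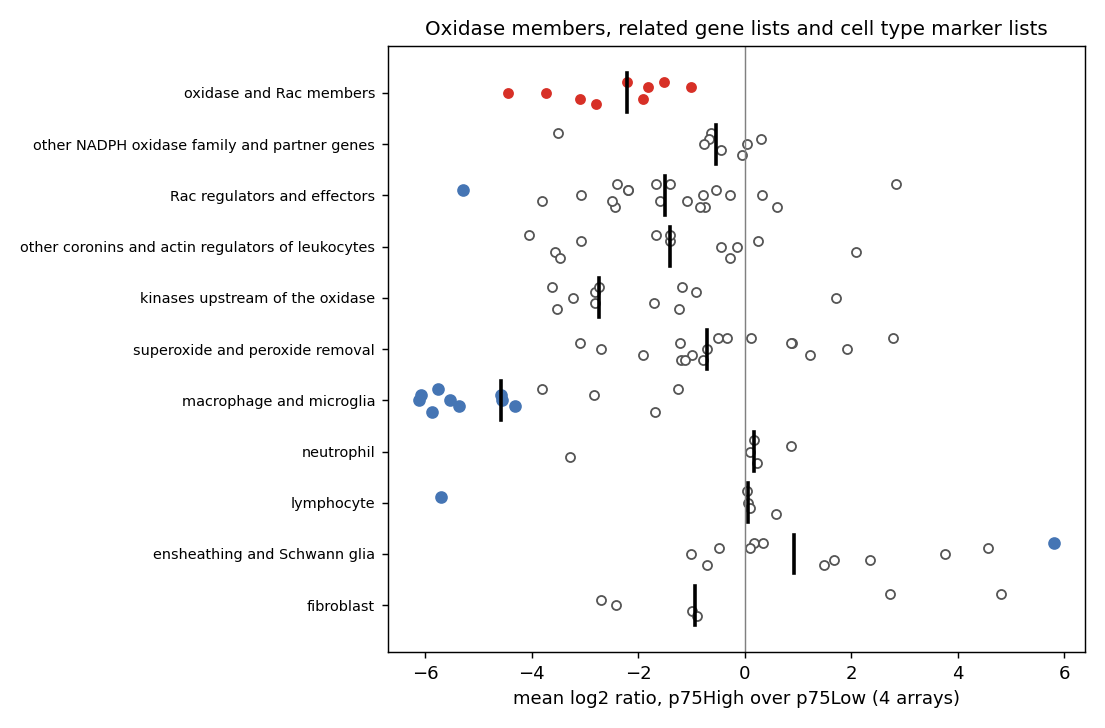
Mean log2 ratio of p75High over p75Low (horizontal axis) of the 9 oxidase and Rac probes (red) and of the genes of each related and marker list (blue past an adjusted p of 0.05, open otherwise), with the median as a vertical bar. The macrophage and microglia list has a median of -4.58 and the oxidase and Rac probes one of -2.21.

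Markers of the cells in which this oxidase is known moved in the same direction. Of 13 tested macrophage and microglia markers, 9 were lower in p75High, 0 were higher and 4 did not pass, with a median of -4.58 and list medians of -4.59, -5.36, -5.25 and -4.89 in replicates 1 to 4. Ctss, a cysteine protease of the lysosome, read -6.11 ± 0.79, Csf1r, the receptor for macrophage colony-stimulating factor, -6.08 ± 0.61, and Adgre1, a surface receptor of mature macrophages, -5.87 ± 0.69 (adjusted p = 0.0262 each). The other Csf1r probes read -0.25 and 0.41. All 13 markers were well above background in p75High on every array, and the summed signal of the list above local background was 10249 to 14005 in p75High and 223923 to 305989 in p75Low. The part of these markers in the oxidase values was not tested.

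Markers of other blood cells that carry the oxidase or Vav1 were detected in part. Of 9 neutrophil markers on the array, 4 to 7 were well above background in p75High and 4 to 6 in p75Low, and of 9 lymphocyte markers 3 to 6 in each channel. Of 10 listed neutrophil markers 5 were tested and 0 passed in limma (1 lower and 1 higher unadjusted), with a median of 0.18, and Mpo and Mmp8 were not well above background on any array. The summed signal of the 9 neutrophil markers on the array was 1639 to 2291 in p75High and 1485 to 6241 in p75Low. Camp, a granule peptide, read 0.87 ± 0.38 (adjusted p = 0.373), and Csf3r, the receptor for granulocyte colony-stimulating factor, -3.29 ± 2.20 (adjusted p = 0.319). Of 10 listed lymphocyte markers 5 were tested, with a median of 0.06, and Ms4a1 and Cd2 were not well above background on any array. Cd4, which rat macrophages also express, was lower in p75High at -5.71 ± 0.57 (adjusted p = 0.0262), and the other 4 did not pass. The summed signal of the 9 lymphocyte markers on the array was 556 to 1971 in p75High and 2432 to 10899 in p75Low. This sum includes Cd4, whereas the other 4 tested markers had mean ratios of 0.04 to 0.58. Neither list's part in the oxidase values was tested.

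Glial and fibroblast lists are given by ratio and by summed signal, which is not normalized between the dyes. Of 12 glial markers, Ngfr was higher and 11 did not pass in limma (3 higher and 0 lower unadjusted, median 0.91). Their summed signal was 29658 to 72073 in p75High and 2235 to 12575 in p75Low. Ngfr encodes the receptor used for the sort, so its call follows from the sort. The counts, the median and the sum of this list all include Ngfr. Of 6 tested fibroblast markers 0 passed in limma (2 lower and 2 higher unadjusted, median -0.94). The summed signal of the 10 fibroblast markers on the array was 70893 to 111702 in p75High and 10955 to 30595 in p75Low. Postn, a matrix protein, read 4.80 ± 1.60 (adjusted p = 0.0992, and 0.0191 with the pairing ignored), and Col1a1, a fibrillar collagen chain, 2.73 ± 1.20 (adjusted p = 0.198). The other 4 tested markers had mean ratios below 0, at -2.71 for Col1a2, -2.42 for Col3a1, -0.99 for Thy1 and -0.89 for Fn1. Thy1 was well above background on 2 arrays in p75High. The list median and the summed signal differ in direction, but the sum also holds markers that were not tested.

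Genes outside the set with the array pattern closest to that of Cybb were Ranbp2, a nucleoporin, Ccl7, a monocyte chemokine, Bltp1, a lipid transport protein, Ifitm3, an interferon-induced membrane protein, and Csf2rb, the shared beta chain of cytokine receptors. Their root mean square differences from Cybb over the 4 log2 ratios were 0.20 to 0.43. Ranbp2, the closest, read -4.33, -0.22, -4.45 and -0.04. For Rac2 the closest were Mettl25b, Tlr9, an endosomal DNA receptor, Snx18, Npepps, a cytosolic aminopeptidase, and Commd9, at 0.35 to 0.54. With 4 arrays, such likeness among 24756 probes describes the ratios alone.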

How the data were processed

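Gene expression was measured on 4 two-colour Agilent rat arrays on 1 slide, scanned on 1 day. Per the file headers, the deposited columns of intensity gave mean spot and median local background brightness per channel (Feature Extraction 10.5.1.1, rn4 positions; the submitters' processing notes name version 10.5). The deposited log10 ratios, per the file headers, were background-subtracted and dye-normalized, and the authors' value table held the same ratios (largest difference 0, column medians 0).

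Here intensities were corrected with normexp (offset 50) and loess (span 0.3) in limma 3.58.1 under R 4.3.3. Of 173516 readings, 1112 (0.641%) were outliers and left out, and 0 were saturated. Repeat spots were averaged, 24941 of 41012 probes were kept, and 24872 with at least 2 readings were tested with lmFit and eBayes on the log2 ratio against 0, the paired difference stated by the labels. Channels of the same array deviated together only weakly, with correlations of 0.13, 0.07, 0.07 and 0.27 in replicates 1 to 4. The highest with another array were 0.05, 0.05, 0.04 and -0.02.

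A list gene took its brightest kept probe. Text names every member, Ngfr, up to 3 list genes past the threshold by size (or the 2 with the smallest p), and the 5 genes nearest to Cybb and to Rac2. Some genes that the rule names are not reported here. Members and lists were chosen with earlier results of these data known. Names were updated through RefSeq (GRCr8), which matched 20746 of 41012 probes. Simulated data with known changes were used to check the scripts.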

Additional observations from a re-analysis of the deposited data

How the results depend on the processing

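Over the other settings tried, 98 of 103 values of the member probes kept their direction and their side of the threshold, 5 passed it and 0 reversed. With 1 array left out 0 probes of the whole array passed, so for those values the side of the threshold was fixed beforehand. The difference between Rac2 and Rac1 reversed without replicate 3, at -0.08, and ran from -0.08 to 0.77 with 1 array left out. The number of member probes called lower was 0, and it was 1 with the stricter filter, 2 with the scanner ratios, 1 with outlier spots kept and 1 with no replicate block. Across all probes, 65 were higher and 98 lower. These counts were 26 and 48 with no filter, 110 and 128 with the stricter filter, and 112 and 165 with the scanner ratios. Ignoring the pairing (no replicate block), they were 163 and 168. In limma they were 0 and 0 without each of replicates 1 to 4 (2081 to 2652 probes at an unadjusted p under 0.05), so every call rests on all 4 arrays. Fewer probes were tested under the stricter filter, and the cause of the other shifts was not tested. Of 211 values of other named genes 24 lost their call and 2 gained one, and all 24 losses were values with 1 array left out. Ratios of Vav1 and Cyba are limited by p75High readings near background. The same holds for Sod2, Arhgdib and Thy1 among the list genes named, each well above background in p75High on 2 arrays. Nox1 and Nckap1 are limited in p75Low, where they were well above background on 2 and 0 arrays.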
